A study of Mus musculus with 44 samples.

Results

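Saa3, Saa1, Saa2, Lcn2, Hp, Nos2, Cebpd, Nfkbiz, Il1r1 and Il1rn are genes of the acute-phase and interleukin-1 (IL-1) response, and they were taken by symbol from the gene counts of sorted mouse mammary fibroblasts. They make up 10 of the 55486 named genes of the table, and each symbol matched a single entry. All 10 passed the low-count filter, which left 16601 genes for testing.

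Fibroblasts were sorted as EpCAM-/CD49f-/CD31-/CD45- cells from En1-Cre;mTmG recipient mice that carried fragments of donor mammary tissue. The control recipients (3 mice, 12 libraries) had received tissue without a tumor model and gave normal fibroblasts (NFs), the WB1P recipients (5 mice, 16 libraries) had WapCre;Brca1F/F;Trp53F/F tissue, and the WB1P-Myc recipients (5 mice, 16 libraries) had the same alleles with Col1a1invCAG-Myc-IRES-Luc. Both models recombine their alleles through Cre from the milk protein promoter Wap, active in mammary epithelium, and gave cancer-associated fibroblasts (CAFs). Brca1 and Trp53 are lost in both, and WB1P-Myc tissue overexpresses Myc as well. The design text speaks of end-stage tumors, but the labels of WB1P-Myc mice 4 and 5 carry the mark 8x8, which as a size in mm is the advanced stage of the study's methods, and the other labels give no size. Cells were split by surface CD26 and by GFP, which marks descendants of En1-expressing cells, and libraries of the same mouse and CD26 class were summed to 25 sums (CD26-: 3 control, 5 WB1P and 5 WB1P-Myc mice; CD26+: 3, 4 and 5). The fat pads of these recipients were not cleared, and control tissue was age-matched. Control labels read wildtype and do not name the donor. For control transplants the study describes donor tissue from WapCre-negative Cdh1F/F;PtenF/F mice. The tumor models were FVB/n, while the En1-Cre recipients had been crossed to FVB/n mTmG mice for only 2 generations. Each control label holds a pair of mouse numbers and was counted as 1 mouse, and the labels do not say whether cells of a pair were pooled. Levels are CPM, the counts of a gene scaled to the total of all gene counts, libraries held 5790599 to 15240328 counts, and mice are numbered within a condition.

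The sort held at the RNA level, as Dpp4, the gene of CD26, was at 0.619 to 17.6 CPM in CD26- sums and at 222.8 to 845.5 CPM in CD26+ sums. Fibroblast markers (7 genes, collagens and Pdgfra among them) summed to 33570 to 84000 CPM in every sum. Pericyte markers (6 of 6 detected, Rgs5 and Notch3 among them) summed to 1808 to 10450 CPM in CD26- CAFs, against 209.9 to 400.0 CPM in CD26- NFs and 144.7 to 325.3 CPM in all CD26+ sums. Neutrophil markers stayed at or below 29.7 CPM and hepatocyte markers at or below 0.913 CPM.

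The acute-phase response is the change in secreted proteins that follows tissue injury, infection or cancer, and is best known from liver, where IL-1 and IL-6 raise serum amyloid A and haptoglobin. IL-1 binds its receptor IL1R1 and acts through the adaptor MyD88 and NF-kB, and the factors IκBζ (Nfkbiz) and C/EBPδ (Cebpd) then act on a second set of genes such as Lcn2. In fibroblasts of tumors, IL-1 and NF-kB signaling is known for the inflammatory state called iCAF, and IL1RN is the natural antagonist that occupies the receptor without activating it.

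The 3 Saa members lie close together on chromosome 7 (GRCm38): Saa3 at chr7:46711998-46715700, Saa1 at chr7:46740497-46742980 and Saa2 at chr7:46751790-46754313, the first pair on the minus strand and Saa2 on the plus strand. Lcn2 lies at chr2:32384633-32388252 and Il1rn at chr2:24336853-24351494. The others are Hp at chr8:109575128-109579172, Nos2 at chr11:78920787-78960254, Cebpd at chr16:15887286-15891031, Nfkbiz at chr16:55811375-55838899 and Il1r1 at chr1:40225080-40317257. Cebpd overlaps Spidr on the other strand, and Il1r1 overlaps Gm38070 on the same strand, so that reads of Il1r1 may be shared.

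RefSeq promoters (GRCm38.p6) were matched for 6 of the 10 genes, Il1r1 and Il1rn among them. The 250 bases upstream of the start are shown for Saa3, Saa1, Saa2 and Lcn2. Saa1 and Saa2 are close copies whose counts have to be read together, while Saa3 is not. Capitals mark the C/EBP motif TTGCNNAA on either strand, and sequences run 5′ to 3′ along the gene.
Saa3, chr7:46715677-46715926, minus strand: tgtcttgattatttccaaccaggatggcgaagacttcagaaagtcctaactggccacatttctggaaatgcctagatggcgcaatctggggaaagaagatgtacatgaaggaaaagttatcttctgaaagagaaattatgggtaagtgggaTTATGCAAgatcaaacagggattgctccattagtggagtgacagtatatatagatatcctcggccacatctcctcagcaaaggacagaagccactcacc
Saa1, chr7:46742981-46743230, minus strand: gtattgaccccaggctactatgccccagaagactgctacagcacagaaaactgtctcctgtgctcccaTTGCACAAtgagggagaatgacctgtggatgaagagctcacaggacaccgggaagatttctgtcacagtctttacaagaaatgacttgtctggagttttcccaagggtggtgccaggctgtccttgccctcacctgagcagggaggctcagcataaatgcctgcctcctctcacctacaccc
Saa2, chr7:46751583-46751832, plus strand: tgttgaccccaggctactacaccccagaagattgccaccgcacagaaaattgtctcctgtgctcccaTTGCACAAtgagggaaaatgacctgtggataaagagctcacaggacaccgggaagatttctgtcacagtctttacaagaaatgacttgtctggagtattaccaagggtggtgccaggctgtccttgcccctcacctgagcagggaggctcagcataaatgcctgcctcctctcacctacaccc
Lcn2, chr2:32387740-32387989, minus strand: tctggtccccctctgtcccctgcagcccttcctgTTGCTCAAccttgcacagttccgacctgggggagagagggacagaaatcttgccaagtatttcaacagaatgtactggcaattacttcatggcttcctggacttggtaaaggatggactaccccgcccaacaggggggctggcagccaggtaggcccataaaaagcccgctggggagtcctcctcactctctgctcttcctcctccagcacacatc
Each of these promoters held 1 match, from 99 to 92 bases upstream of the start in Saa3 (on the opposite strand), 182 to 175 in Saa1, 183 to 176 in Saa2 and 216 to 209 in Lcn2. The motif occurred in 9.56% of all 32851 promoters of this length. An NF-kB motif (GGG, NNT and NNCC in 1 run, on either strand) was in 15.94% of all promoters and in none of these windows, and was matched in Il1rn as GGGAGTGGCC and, at another start, as GGGTTTTTCC. The STAT motif TTCNNNGAA, present in 7.02% of all promoters, had no match in the windows of the 6 genes. The C/EBP motif was also matched at 1 start of Il1r1, as TTGCTGAA from 133 to 126 bases upstream, and at no start of Il1rn. The promoters of Saa1 and Saa2 were 94.82% identical, against 52.2% for Saa1 and Saa3. Windows of 54 bases (the length of read 1) were pooled over the annotated transcripts of a gene. Of the 2523 windows of Saa1, 732 (29.01%) also occurred in Saa2 transcripts and 0.2% in Saa3 transcripts. Reads could therefore be split between Saa1 and Saa2, and their counts are uncertain for that reason. All annotated transcripts counted alike, so 29.01% is not the share of Saa1 reads that also match Saa2, which was not measured.

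Saa3, the serum amyloid A made mainly outside the liver, was at the edge of detection in NFs and present in every CAF sum. CD26- NFs had 0.824, 0.553 and 0.659 CPM in mice 1 to 3, and CD26+ NFs had 0.614, 0.318 and 0.475 CPM, from 8 to 22 counts per sum. In CD26- CAFs the levels were 6.04, 42.5, 5.49, 34.1 and 31.8 CPM in WB1P mice 1 to 5 and 8.01, 23.2, 39.8, 33.0 and 54.5 CPM in WB1P-Myc mice 1 to 5. Every CAF sum was above every NF sum, and WB1P mice 1 and 3 and WB1P-Myc mouse 1 formed the low end. CD26+ CAFs had 74.6, 23.7, 214.5 and 163.0 CPM in WB1P mice 2 to 5 and 52.6, 41.9, 100.5, 506.9 and 75.6 CPM in WB1P-Myc mice 1 to 5. Mouse 4, one of the mice labelled 8x8, stood far above the other WB1P-Myc mice. Saa3 rose in all 4 comparisons of CAFs with NFs of the same CD26 class, by 5.28 ± 1.10 (log2 fold change ± SE, edgeR quasi-likelihood test, adjusted p = 0.000781) for CD26- WB1P, 8.12 ± 1.25 (7.75e-05) for CD26+ WB1P, 5.53 ± 1.11 (0.000631) for CD26- WB1P-Myc and 8.47 ± 1.26 (5.5e-05) for CD26+ WB1P-Myc. Without WB1P-Myc mouse 4 the last value was 7.22, and leaving out any other mouse kept all 4 calls.

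Saa1, the main circulating serum amyloid A of liver origin, was counted at 1 to 78 reads per sum. CD26+ NFs had 0.230, 0.119 and 0.170 CPM, CD26+ WB1P CAFs 1.24, 0.345, 2.47 and 1.20 CPM, and CD26+ WB1P-Myc CAFs 1.17, 1.41, 0.947, 1.5 and 2.01 CPM, and the CAFs did not overlap the NFs. Saa1 rose there by 3.12 ± 0.89 (adjusted p = 0.0107) in WB1P and by 3.07 ± 0.87 (adjusted p = 0.01) in WB1P-Myc. These calls sat close to the limit, with adjusted p = 0.0501 and 0.0533 in WB1P without control mouse 2 or 3 and 0.0507 in WB1P-Myc without control mouse 3. In CD26- sums the groups overlapped, from 0.0762 to 1.59 CPM in WB1P and 0.152 to 2.68 CPM in WB1P-Myc against 0.356 to 0.787 CPM in NFs, and the log2 differences of 0.23 ± 0.75 and 1.20 ± 0.76 did not pass (adjusted p = 0.834 and 0.219). Saa2 was at 0 to 10 counts and at most 0.519 CPM in every sum, with its highest group mean at 0.263 ± 0.173 CPM (SD, n = 5, CD26- WB1P-Myc). At this depth no difference in Saa2 was detectable, and its largest log2 difference between CAFs and NFs was 1.90 ± 0.96 (CD26+ WB1P, adjusted p = 0.13).

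Lcn2 encodes lipocalin 2, which binds bacterial siderophores. In CD26- sums it was at 2.36, 5.45 and 7.21 CPM in NFs, at 2.48, 14.1, 13.5, 40.1 and 54.5 CPM in WB1P and at 4.01, 18.0, 18.0, 24.8 and 4.92 CPM in WB1P-Myc. Both CAF groups overlapped the NFs, through WB1P mouse 1 and through WB1P-Myc mice 1 and 5. In CD26+ sums it was at 1.84, 3.02 and 3.32 CPM in NFs, at 6.76, 28.8, 53.4 and 32.2 CPM in WB1P mice 2 to 5 and at 6.00, 14.2, 13.8, 15.6 and 5.17 CPM in WB1P-Myc, with no overlap. Lcn2 rose by 3.60 ± 0.85 in CD26+ WB1P (adjusted p = 0.00311), by 2.44 ± 0.78 in CD26- WB1P (0.0185) and by 2.09 ± 0.78 in CD26+ WB1P-Myc (0.0418), while CD26- WB1P-Myc gave 1.51 ± 0.75 (0.116). The call in CD26+ WB1P held without any single mouse. The one in CD26- WB1P was lost without control mouse 1, control mouse 2 or WB1P mouse 5 (log2 difference 2.12, 2.52 and 1.96, adjusted p = 0.0855, 0.0621 and 0.0609). The one in CD26+ WB1P-Myc was lost without any of control mice 1, 2 and 3 or of WB1P-Myc mice 2, 3 and 4 (1.91, 2.17, 2.25, 2.00, 2.00 and 1.89, adjusted p = 0.125, 0.104, 0.0985, 0.0725, 0.0714 and 0.0749), and of its 15 alternatives 5 kept it. It was also lost with total counts, without the low-count filter, without both 8x8 mice and with only sums of both En1 classes (adjusted p = 0.0557, 0.0513, 0.0644 and 0.0675), and the CD26- WB1P call was lost with only the groups compared (0.0513).

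Epithelial markers were read beside Lcn2. Their sum (8 of 8 detected) was 57.7 to 214.9 CPM in CD26- WB1P, 16.7 to 140.1 in CD26+ WB1P, 20.9 to 135.2 in CD26- WB1P-Myc, 4.83 to 74.5 in CD26+ WB1P-Myc, 29.0 to 71.4 in CD26- NFs and 41.3 to 85.8 in CD26+ NFs. WB1P mouse 5 had the highest sum among CD26- WB1P mice (214.9 CPM) and the highest Lcn2 (54.5 CPM), and over the 19 CAF sums log2 Lcn2 and log2 Epcam, named here as 1 of the genes most like Lcn2, had r = 0.794. Of the 8 markers, Krt7 rose in both WB1P comparisons with NFs, and Krt19 fell in CD26+ WB1P and CD26+ WB1P-Myc CAFs (-2.79 and -2.40, adjusted p = 0.00881 and 0.0121), where Lcn2 rose. The part of epithelial cells in the Lcn2 levels was not tested.

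Hp encodes haptoglobin, the plasma protein that binds free hemoglobin. In CD26- sums it was at 0.899, 2.37 and 1.90 CPM in NFs, at 10.5, 55.1, 18.6, 18.3 and 81.6 CPM in WB1P and at 27.9, 22.5, 10.4, 33.4 and 37.8 CPM in WB1P-Myc. In CD26+ sums it was at 0.653, 0.794 and 0.678 CPM in NFs, at 16.5, 10.0, 51.0 and 38.6 CPM in WB1P and at 13.4, 16.1, 19.1, 39.7 and 12.3 CPM in WB1P-Myc. No CAF sum overlapped an NF sum of its class. Hp rose in all 4 comparisons, by 4.56 ± 0.74 in CD26- WB1P (adjusted p = 6.36e-05), 5.51 ± 0.80 in CD26+ WB1P (4.43e-05), 3.95 ± 0.72 in CD26- WB1P-Myc (0.000255) and 4.92 ± 0.78 in CD26+ WB1P-Myc (0.000102). All 15 alternative fits of each kept the call. Hepatocyte markers (5 genes, albumin among them) summed to at most 0.913 CPM, in a CD26+ NF sum, and Ttr and Cyp3a11 were at 0 in 5 and 6 of the 6 groups.

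Nos2 encodes inducible nitric oxide synthase. NFs had 0.0749, 0.750 and 0.146 CPM (CD26-) and 0.154, 0.159 and 0.0339 CPM (CD26+), which rest on 1 to 19 counts per sum. WB1P CAFs had 9.44, 4.14, 3.96, 8.34 and 23.2 CPM (CD26-, mice 1 to 5) and 27.7, 33.3, 9.93 and 23.5 CPM (CD26+, mice 2 to 5). WB1P-Myc CAFs had 0.767, 0.722, 5.30, 7.79 and 3.05 CPM (CD26-) and 2.00, 3.56, 1.17, 220.2 and 3.39 CPM (CD26+). Mouse 4 alone exceeded the other CD26+ WB1P-Myc mice by a wide margin, in both of its CD26+ libraries (89.1 CPM for En1- cells, 365.6 CPM for En1+ cells), and CD26- WB1P-Myc mice 1 and 2 lay within the range of NFs or next to it. Nos2 rose by 5.02 ± 1.67 in CD26- WB1P (adjusted p = 0.0232), 7.83 ± 1.98 in CD26+ WB1P (0.00493) and 8.74 ± 2.01 in CD26+ WB1P-Myc (0.00246), and the difference of 3.47 ± 1.62 in CD26- WB1P-Myc did not pass (0.0971). Without mouse 4 the CD26+ WB1P-Myc value was 4.47 and still passed, and the CD26- WB1P-Myc value was 2.83 and passed (adjusted p = 0.0146). The CD26- WB1P-Myc value also passed without both 8x8 mice (2.69, adjusted p = 0.0368) and with only the groups compared (3.45, 0.0383). Of its 15 alternatives 3 passed. In CD26- WB1P the call was lost without control mouse 1, control mouse 3 or WB1P mouse 5 (4.57, 4.66 and 4.43, adjusted p = 0.0889, 0.0962 and 0.0544). Nos1, the neuronal synthase, moved the other way, from 177.6 ± 66.0 CPM in CD26- NFs (SD, n = 3) to 1.06 ± 0.918 CPM in CD26- WB1P CAFs (n = 5), and fell by 7.26 ± 0.69 on the log2 scale (adjusted p = 1.23e-07).

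**Figure D1:**
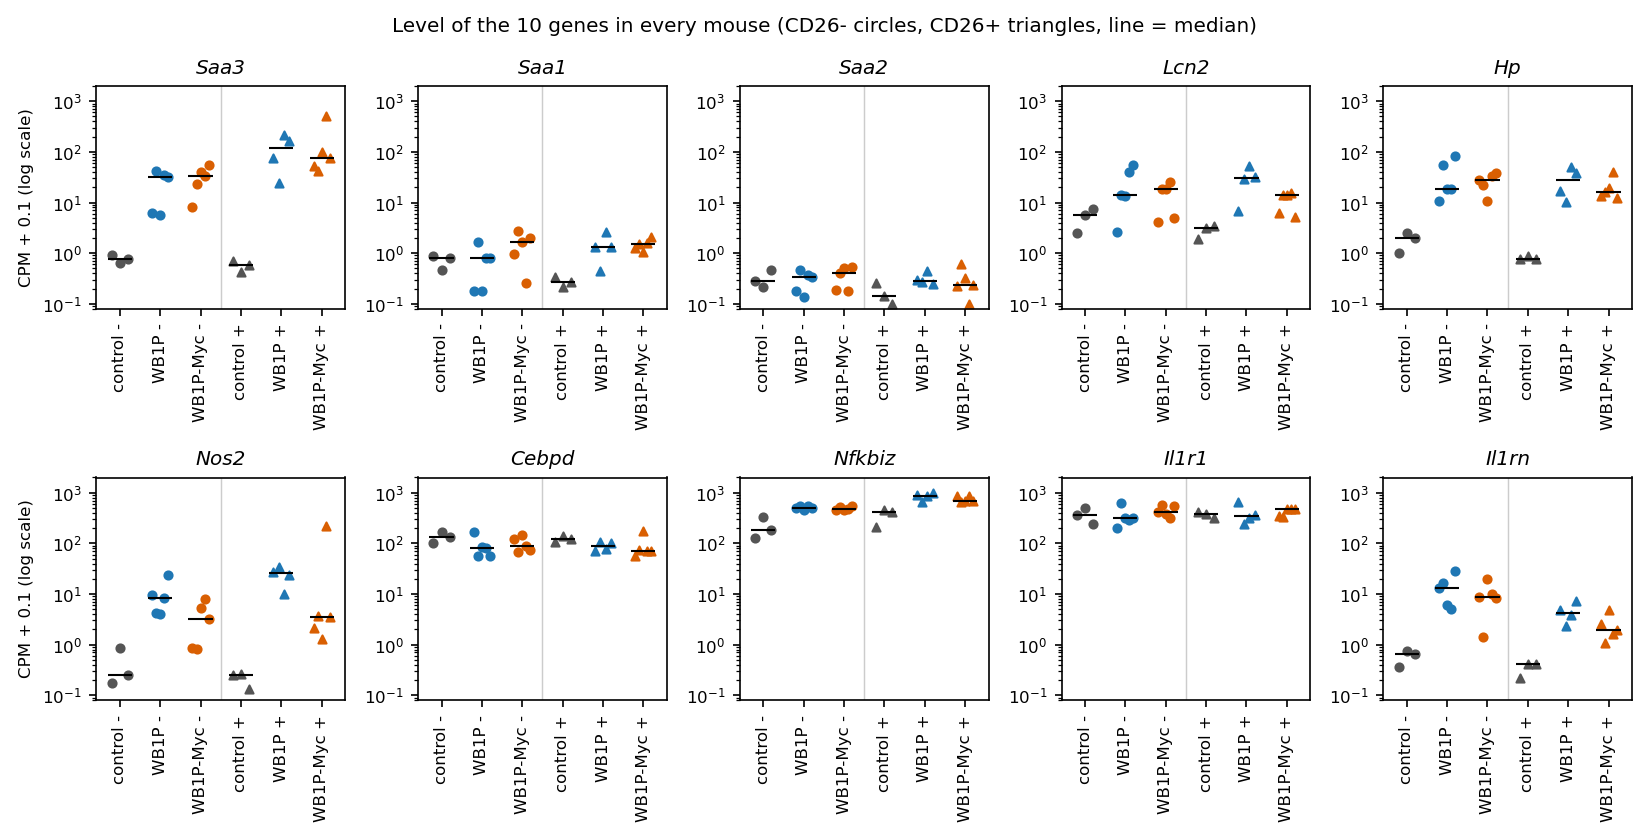
CPM plus 0.1 on a log axis of the 10 genes in each of the 25 sums of mouse and CD26 class, 1 point per mouse, circles for CD26- and triangles for CD26+ fibroblasts, with the group median as a line. Saa3 and Hp of all CAF mice lie above the NFs, Il1r1 overlaps between NFs and CAFs in all 4 comparisons and Cebpd in all but CD26+ WB1P, and the lone high Nos2 triangle of WB1P-Myc is mouse 4 at 220.2 CPM.

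Nfkbiz, the inducible nuclear IκB protein, had even levels among CAF mice. In CD26- sums it was at 130.0, 331.2 and 179.6 CPM in NFs, at 446.6 to 558.4 CPM in the 5 WB1P mice and at 450.2 to 549.1 CPM in the 5 WB1P-Myc mice. In CD26+ sums it was at 213.8, 446.5 and 414.8 CPM in NFs, at 909.3, 642.2, 851.9 and 972.4 CPM in WB1P and at 858.6, 657.4, 673.1, 880.3 and 694.9 CPM in WB1P-Myc. NFs and CAFs did not overlap within a class, and control mouse 1 was the lowest NF in both classes. Nfkbiz rose by 1.40 ± 0.26 (adjusted p = 0.000308), 1.44 ± 0.27 (0.000531), 1.20 ± 0.26 (0.0013) and 1.19 ± 0.26 (0.00182) in CD26- WB1P, CD26+ WB1P, CD26- WB1P-Myc and CD26+ WB1P-Myc.

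Cebpd, a C/EBP transcription factor that IL-1 and IL-6 induce, did not pass in any comparison and was at or below the NF level in most CAFs. NFs had 99.8 to 168.6 CPM (CD26-) and 107.8 to 137.7 CPM (CD26+), WB1P CAFs 56.6 to 164.8 and 71.9 to 105.9 CPM, and WB1P-Myc CAFs 68.3 to 144.5 and 57.4 to 177.2 CPM. The log2 differences from NFs were -0.47 ± 0.33, -0.27 ± 0.35, -0.46 ± 0.33 and -0.35 ± 0.33 (adjusted p = 0.279, 0.569, 0.281 and 0.432, in the order used for Nfkbiz). The group means hid 1 high mouse in each of 2 groups, WB1P mouse 1 at 164.8 CPM in CD26- and WB1P-Myc mouse 3 at 177.2 CPM in CD26+ sums. Both sums hold 1 library, and all 6 sums of 1 library were the highest or second highest of their group. The others were WB1P mouse 3 at 105.9 CPM (CD26+) and WB1P-Myc mice 1 and 3 at 123.5 and 144.5 CPM (CD26-). WB1P-Myc mouse 2 was at 72.8 CPM (CD26+). The part of the missing library in these levels was not tested. Without WB1P mouse 1, of which only an En1+ library of CD26- cells was sequenced, Cebpd fell by 0.81 in CD26- WB1P (adjusted p = 0.0426), and without WB1P-Myc mouse 3 it fell by 0.73 in CD26+ WB1P-Myc (adjusted p = 0.0449).

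Il1r1, the signaling receptor, was among the more abundant members and did not differ detectably between conditions. Its group means ran from 353.4 ± 165.4 CPM (SD, n = 5, CD26- WB1P) through 365.5 ± 125.3 (n = 3, CD26- NFs), 370.1 ± 53.1 (n = 3, CD26+ NFs), 395.8 ± 183.0 (n = 4, CD26+ WB1P) and 420.6 ± 74.4 (n = 5, CD26+ WB1P-Myc) to 445.7 ± 114.7 (n = 5, CD26- WB1P-Myc), and every neighbor in this order lay within 1 SD. The log2 differences between CAFs and NFs were 0.11 to 0.32 with SEs of 0.37 to 0.39, and the lowest adjusted p was 0.542. WB1P mouse 2 had the highest level in both classes, at 636.0 and 658.5 CPM.

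Il1rn, the receptor antagonist, was nearly silent in NFs, at 0.262, 0.632 and 0.549 CPM in CD26- and 0.115, 0.318 and 0.305 CPM in CD26+ sums (3 to 16 counts). CD26- CAFs had 12.8, 16.3, 6.02, 4.89 and 28.7 CPM in WB1P and 8.61, 1.34, 20.01, 9.80 and 8.12 CPM in WB1P-Myc. CD26+ CAFs had 4.66, 2.25, 3.74 and 7.17 CPM in WB1P mice 2 to 5 and 2.42, 0.964, 4.81, 1.5 and 1.87 CPM in WB1P-Myc. No CAF sum overlapped the NFs of its class, and WB1P-Myc mouse 2 was the lowest CAF in both. Il1rn rose by 4.95 ± 0.80 (adjusted p = 6.45e-05), 4.38 ± 0.83 (0.000555), 4.26 ± 0.78 (0.000275) and 3.30 ± 0.80 (0.0036), in the order used for Nfkbiz, and all 15 alternative fits of each kept the call.

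Counted over the members, 6 rose in CD26- WB1P CAFs (Saa3, Lcn2, Hp, Nos2, Nfkbiz and Il1rn), where 35.4% of all tested genes were called in either direction and 17.6% as higher. In CD26+ WB1P CAFs 7 rose, the same genes and Saa1, against 33.5% of all genes called and 17.4% as higher. In CD26- WB1P-Myc CAFs 4 rose (Saa3, Hp, Nfkbiz and Il1rn), against 36.6% and 19.1%, and in CD26+ WB1P-Myc CAFs 7 rose, again with Saa1, against 34.7% and 17.4%. None fell in these comparisons. Over the 4 comparisons, 4 members rose in each, 2 in 3 of them (Lcn2 and Nos2), 1 in 2 (Saa1) and 3 in none (Saa2, Cebpd and Il1r1). The median log2 difference of the members was 1.92, 3.36, 1.36 and 2.58, where the median of all tested genes was 0.00, 0.00, 0.02 and -0.01. These comparisons share their control mice and each pair of CD26 classes shares mice. The members were chosen with earlier results of these data known. Their counts and medians beside those of all genes describe the set and are no test of it. In sorted bulk samples, a change in the share of expressing cells and a change in RNA per cell cannot be told apart.

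**Figure D2:**
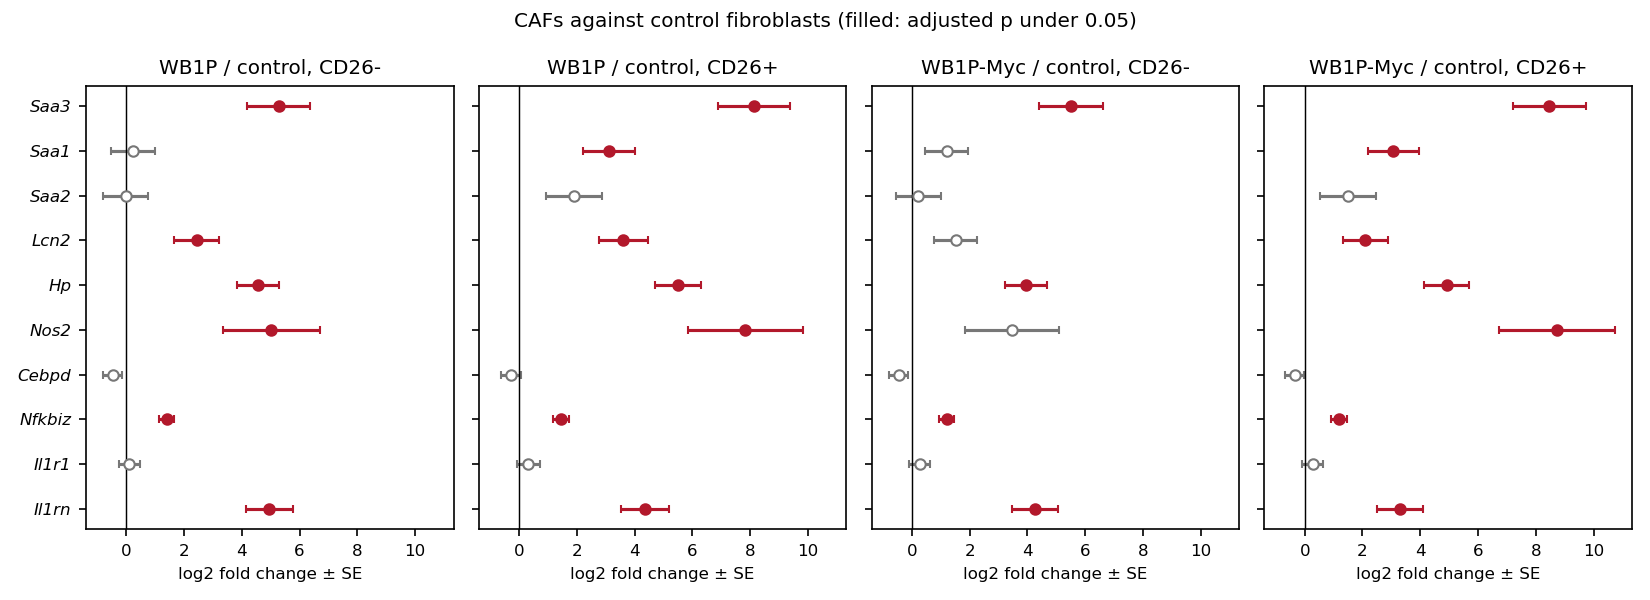
Log2 fold change with its SE of each member in CAFs against control fibroblasts of the same CD26 class, filled where the adjusted p was under 0.05. Saa3 lies at 5.28 to 8.47, and Cebpd and Il1r1 have open points in all 4 panels.

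WB1P-Myc and WB1P CAFs were compared to ask whether Myc in the tumor went with a difference in these genes. No member passed in CD26- CAFs, where 0.512% of all genes were called, or in CD26+ CAFs, where 0% were called (edgeR). DESeq2 called 0 in both and gave no adjusted p for Nos2. By edgeR, 0 and 1 members had an unadjusted p under 0.05. The member with the unadjusted p was Lcn2, with a log2 difference of -1.51 ± 0.65 in CD26+ CAFs (WB1P-Myc minus WB1P, adjusted p = 1). Nos2 had log2 differences of -1.55 ± 1.08 in CD26- and 0.91 ± 1.10 in CD26+ CAFs, and the second became -3.34 when WB1P-Myc mouse 4 was left out. The share of all genes at an unadjusted p under 0.05 is not given, here or in later comparisons. Counts of members at that threshold are therefore not read as a trait of the members.

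Within a mouse, the CD26 classes differed in a gene-specific way. Nfkbiz was higher in CD26+ than in CD26- cells in 3 of 3 control, 4 of 4 WB1P and 5 of 5 WB1P-Myc mice, and Il1rn was lower in CD26+ cells in the same 3, 4 and 5 mice. Saa3 was higher in CD26+ cells in all 4 WB1P and all 5 WB1P-Myc mice and lower in all 3 control mice, at 0.318 to 0.824 CPM in the latter.

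In NFs no member passed between CD26 classes by edgeR (4.17% of all genes called). DESeq2 called 0 and gave no adjusted p for Nos2. By edgeR, 1 member had an unadjusted p under 0.05. That member was Nfkbiz, at 0.81 ± 0.28 (adjusted p = 0.131), and with mouse as a block it rose by 0.85 ± 0.20 (adjusted p = 0.0137), which takes the count from 0 to 1. In WB1P CAFs, where 26.0% of all genes were called and 13.0% as higher, Saa3 rose by 2.38 ± 0.74 (adjusted p = 0.0198) and Nfkbiz by 0.84 ± 0.23 (adjusted p = 0.00876) in CD26+ cells. Il1rn differed by -1.46 ± 0.58 (adjusted p = 0.0673), and with mouse as a block it fell by 1.31 ± 0.27 (adjusted p = 0.00244), for a count of 3. The Saa3 call was lost without WB1P mouse 4 or 5 (2.13 and 2.28, adjusted p = 0.0831 and 0.0667), the Nfkbiz call was lost without mouse 5 (0.75, adjusted p = 0.0624), and the count was then 1 without mouse 4 and 0 without mouse 5.

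In WB1P-Myc CAFs, where 20.0% of all genes were called (9.29% higher and 10.7% lower), Saa3 rose by 2.48 ± 0.72 (adjusted p = 0.0156), Nos2 by 3.89 ± 1.16 (0.0192) and Nfkbiz by 0.79 ± 0.22 (0.0117) in CD26+ cells, and Il1rn fell by 1.84 ± 0.55 (0.0204). Without mouse 4 none of the 4 passed, with Saa3 at 1.28 (adjusted p = 0.223), Nos2 at 0.24 (0.88), Nfkbiz at 0.73 (0.0675) and Il1rn at -1.68 (0.0891). With mouse as a block Nos2 was at 1.65 ± 0.89 (adjusted p = 0.181) and the other 3 kept their calls. Without mouse 1 the count was 2, as Nfkbiz (0.66, adjusted p = 0.0918) and Il1rn (-1.94, 0.056) did not pass, and without mouse 5 Il1rn did not pass (-1.81, 0.0556). Pericyte markers differed between the same classes (1808 to 10450 CPM in CD26- against 144.7 to 325.3 CPM in CD26+ CAFs), and their part in these differences was not tested.

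**Figure D3:**
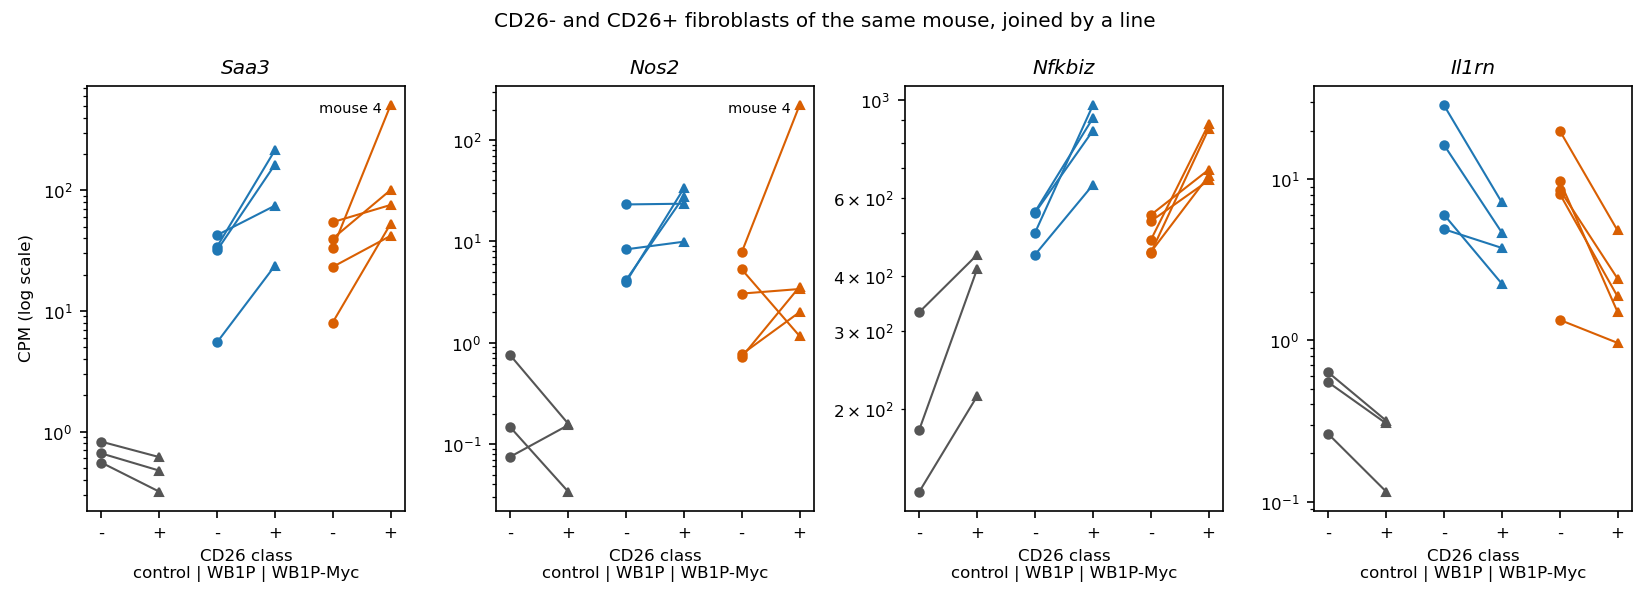
CPM on log axes of Saa3, Nos2, Nfkbiz and Il1rn in CD26- (circles) and CD26+ (triangles) fibroblasts of the same mouse, joined by a line, for 3 control, 4 WB1P and 5 WB1P-Myc mice. All Nfkbiz lines go up and all Il1rn lines go down, and the steepest Nos2 line belongs to WB1P-Myc mouse 4, from 7.79 to 220.2 CPM.

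The difference between CD26 classes was also compared between conditions. By edgeR, no member passed for WB1P against control (1.86% of all genes called, 1 member at an unadjusted p under 0.05). None passed for WB1P-Myc against control (1.16%, 0 members) or WB1P-Myc against WB1P (0%, 0 members). DESeq2 called none either, but gave no adjusted p for Nos2 in any of these, nor for Saa2 in WB1P against control. Saa3, whose direction was opposite in control and CAF mice, had interaction log2 values of 2.84 ± 1.47 (WB1P minus control, adjusted p = 0.418) and 2.94 ± 1.45 (WB1P-Myc minus control, adjusted p = 0.535). The member under 0.05 unadjusted was Saa1, at 2.89 ± 1.14 for WB1P (adjusted p = 0.236).

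Single mice set much of the spread of these genes. The SD of log2(CPM + 0.5) between mice of a group was 1.54 for Nos2, 1.18 for Saa3, 1.13 for Lcn2, 0.855 for Il1rn, 0.846 for Hp, 0.646 for Saa1, 0.492 for Cebpd, 0.462 for Il1r1, 0.335 for Nfkbiz and 0.295 for Saa2 (19 degrees of freedom). The added 0.5 narrows the spread of levels near or below it, as in Saa2, Saa1 and the NF values of Saa3, Nos2 and Il1rn. Without it, the SD of CPM was 43.2 to 123.7% of the group mean for Saa2 and 9.08 to 49.1% for Nfkbiz. The SD between the En1+ and En1- libraries of the same mouse and CD26 class (19 pairs) was smaller for each, from 0.118 for Nfkbiz to 0.693 for Nos2. The ratio of the mouse SD to the library SD ran from 1.34 for Saa2 to 3.44 for Il1r1. Within CAF groups the highest mouse exceeded the lowest by 6.8 to 12.1 times for Saa3, 3.02 to 22.0 times for Lcn2, 3.22 to 7.81 times for Hp, 3.19 to 14.9 times for Il1rn and 3.36 to 189.0 times for Nos2, but only by 1.22 to 1.51 times for Nfkbiz.

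**Figure D4:**
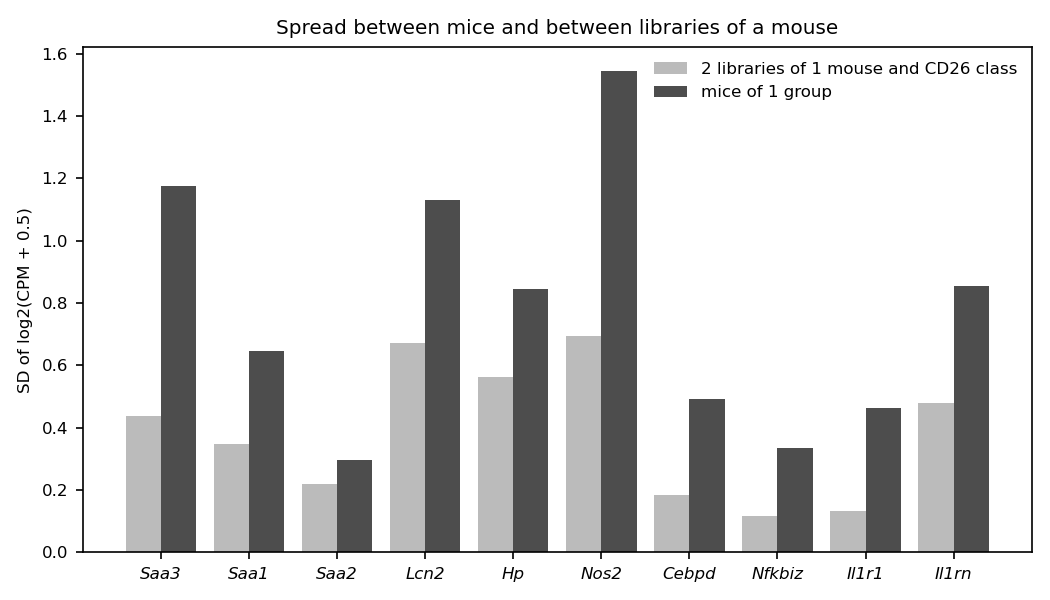
Bars of the SD of log2(CPM + 0.5) between the libraries of a mouse and CD26 class (light, 19 pairs) and between mice of a group (dark), for each gene. The dark bar is the taller one for all 10 genes, and the tallest dark bar is Nos2 at 1.54.

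Members did not share 1 order of mice. Taken as deviations from the group mean over the 19 CAF sums, which include both classes of 9 mice, Saa3 varied most alike with Hp (Pearson r = 0.676) and Nfkbiz (r = 0.666), and Saa1 with Il1r1 (r = 0.634) and Saa2 (r = 0.621). Cebpd had negative r with 8 of the other 9 members, down to -0.493 with Saa1, and 0.298 with Il1rn. Il1rn had r between -0.081 and 0.298 with all others. WB1P-Myc mouse 4 was the highest CD26+ WB1P-Myc mouse for Saa3, Nos2, Hp, Lcn2, Nfkbiz and Il1r1, and was the second lowest for Il1rn at 1.5 CPM.

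Levels per length were taken over all annotated exon bases of a gene, at 2606 for Saa3, 5018 for Nfkbiz and 6363 for Il1r1. Where the main transcript is shorter than this, the value is too low, so the order of members holds for this length only. On it, Nfkbiz had the highest level of the members in the 4 CAF groups (98.2 to 168.0 CPM per kb) and in CD26+ NFs (71.4). In CD26- NFs Il1r1 was higher, at 57.4 against 42.6. Il1r1 was at 55.5 to 70.0 CPM per kb over all groups. Saa3 was at 0.18 CPM per kb in CD26+ NFs and at 45.6 and 59.7 in CD26+ WB1P and WB1P-Myc CAFs, where Il1r1 was at 62.2 and 66.1. Without WB1P-Myc mouse 4 the Saa3 mean of CD26+ WB1P-Myc CAFs was 26.0. Cebpd was at 23.7 to 35.9, Hp at 12.5 to 22.9 in CAFs, Lcn2 at 4.18 to 11.5 in CAFs, and Il1rn at no more than 2.48.

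Over all 25 sums, the genes with the most similar log2 CPM were Cemip, Slc39a14 and Fbln2 for Saa3 (r = 0.921, 0.918 and 0.912), Chil1 for Lcn2 (0.924), Sorcs2 for Hp (0.91), P4ha2, Bnip3 and Pdk1 for Nos2 (0.879, 0.845 and 0.838), Adam9 for Nfkbiz (0.919), Plekhf1 for Cebpd (0.821), Sod2 for Il1r1 (0.772) and Ddit4 for Il1rn (0.897), among 8878 genes with a mean of at least 10 CPM. Over the 19 CAF sums they were Aldh1a1 for Saa3 (0.901), Reps2 for Saa1 (0.868), Chil1 for Lcn2 (0.88), P4ha2 for Nos2 (0.776), Mcc for Nfkbiz (0.952), Plekhf1, Sbno2 and Bcl3 for Cebpd (0.822, 0.801 and 0.772), Naa50 for Il1r1 (0.892) and Ccdc117 for Il1rn (0.846). The sums share mice and depth, and no test was made of these values.

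Other genes of the pathway were read from lists, whose counts stand beside the shares of all tested genes called in CD26- WB1P, CD26+ WB1P, CD26- WB1P-Myc and CD26+ WB1P-Myc CAFs against NFs (35.4, 33.5, 36.6 and 34.7%, in the order kept for every list). The lists, too, were chosen with earlier results of these data known. Of the IL-1 ligands and receptors 33.3, 16.7, 50 and 0% were called. Of 6 genes, Il1a and Il1b, the ligands, rose in CD26- WB1P CAFs and, with Casp1, in CD26- WB1P-Myc CAFs, Il1a alone rose in CD26+ WB1P CAFs, and none passed in CD26+ WB1P-Myc CAFs. Il1b was at 0.973 ± 0.488 CPM in CD26- NFs (SD, n = 3), 18.5 ± 29.8 CPM in CD26- WB1P (n = 5) and 24.5 ± 38.1 CPM in CD26- WB1P-Myc CAFs (n = 5), and rose by 4.34 ± 1.40 (adjusted p = 0.0197) and 4.56 ± 1.42 (adjusted p = 0.0156). Macrophage and monocyte markers (10 of 10 detected) summed to 16.0 to 102.2 and 13.8 to 135.0 CPM in those CAFs against 10.8 to 21.4 CPM in CD26- NFs. They were 17.2 to 33.9 and 11.5 to 31.9 CPM in CD26+ WB1P and WB1P-Myc CAFs against 8.06 to 14.9 CPM in CD26+ NFs. Neutrophil markers (10 genes) summed to 1.56 to 29.7 and 1.36 to 16.8 CPM in CD26- CAFs of the same models and 1.35 to 4.50 CPM in CD26- NFs, and their part in Il1b was not tested. Il1r2, the decoy receptor, was higher in CD26+ cells in NFs (2.38 ± 0.58, adjusted p = 0.0185), in WB1P (2.49 ± 0.47, 0.00047) and in WB1P-Myc CAFs (2.02 ± 0.45, 0.00225), and Il1b fell by 3.23 ± 1.07 in CD26+ WB1P-Myc cells (0.0347).

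Among 13 genes of IL-1 receptor signaling, 1 rose and 1 fell in CD26- WB1P, 0 and 1 in CD26+ WB1P, 1 and 2 in CD26- WB1P-Myc and 0 and 2 in CD26+ WB1P-Myc CAFs. These counts are 15.4, 7.69, 23.1 and 15.4% of the list, below the share of all genes in each. The riser was the kinase gene Irak2 in both CD26- comparisons (1.01 ± 0.27, adjusted p = 0.00643, and 1.20 ± 0.27, 0.00196), and Irak1, Traf6 and Tab3 were the genes that fell. Irak3, an inhibitor of the pathway, was higher in CD26+ cells in all 3 conditions (2.54 ± 0.48, 2.93 ± 0.39 and 2.26 ± 0.37, adjusted p = 0.00261, 1.13e-05 and 0.000114). Among 15 NF-kB subunits and inhibitors, 3 rose and 1 fell, 2 and 0, 5 and 1, and 2 and 2 in the same order, or 26.7, 13.3, 40.0 and 26.7%. Tnfaip3, which encodes the inhibitor A20, rose in each, by 2.31 ± 0.32 in CD26- WB1P (adjusted p = 1.14e-05), from 112.6 ± 17.1 CPM (SD, n = 3) to 509.1 ± 45.4 CPM (n = 5). Of the 9 genes of the C/EBP and STAT3 list, 1 rose and 3 fell, 1 and 1, 1 and 3, and 0 and 2 (44.4, 22.2, 44.4 and 22.2%), with Osmr among the risers and Cebpa lower in each.

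Of 24 other acute-phase genes, 16 passed the filter, and 5 rose and 3 fell, 6 and 1, 7 and 2, and 5 and 2 in the same order, or 50, 43.8, 56.2 and 43.8% against 35.4, 33.5, 36.6 and 34.7% of all genes. Serpina3n, an acute-phase protease inhibitor, rose in each, from 184.8 ± 29.6 CPM in CD26+ NFs (SD, n = 3) to 1605 ± 246.2 CPM (n = 4) in CD26+ WB1P and 1599 ± 399.3 CPM (n = 5) in CD26+ WB1P-Myc CAFs, by 3.29 ± 0.48 and 3.21 ± 0.47 (adjusted p = 4.88e-05 and 5.24e-05), as did Serpina3g, Serpina3m, Serpina3i and the lipopolysaccharide-binding protein gene Lbp. Fgb fell in each. Of 20 IL-1 and NF-kB target genes, 9 rose and 1 fell, 13 and 0, 8 and 0, and 9 and 0 (50, 65.0, 40.0 and 45.0%). The named ones of this list were Csf2 in the CD26- (5.03 ± 1.48, adjusted p = 0.0111, and 4.69 ± 1.47, 0.016) and Csf3 in the CD26+ comparisons (5.14 ± 1.36, 0.00664, and 4.13 ± 1.29, 0.0168), which encode growth factors of granulocytes and macrophages. Il6, the classic inducer of the acute-phase response, did not pass, with log2 differences of 0.39 ± 0.48, 1.29 ± 0.51, 0.81 ± 0.48 and 1.17 ± 0.49 (adjusted p = 0.549, 0.0539, 0.191 and 0.0675).

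**Figure D5:**
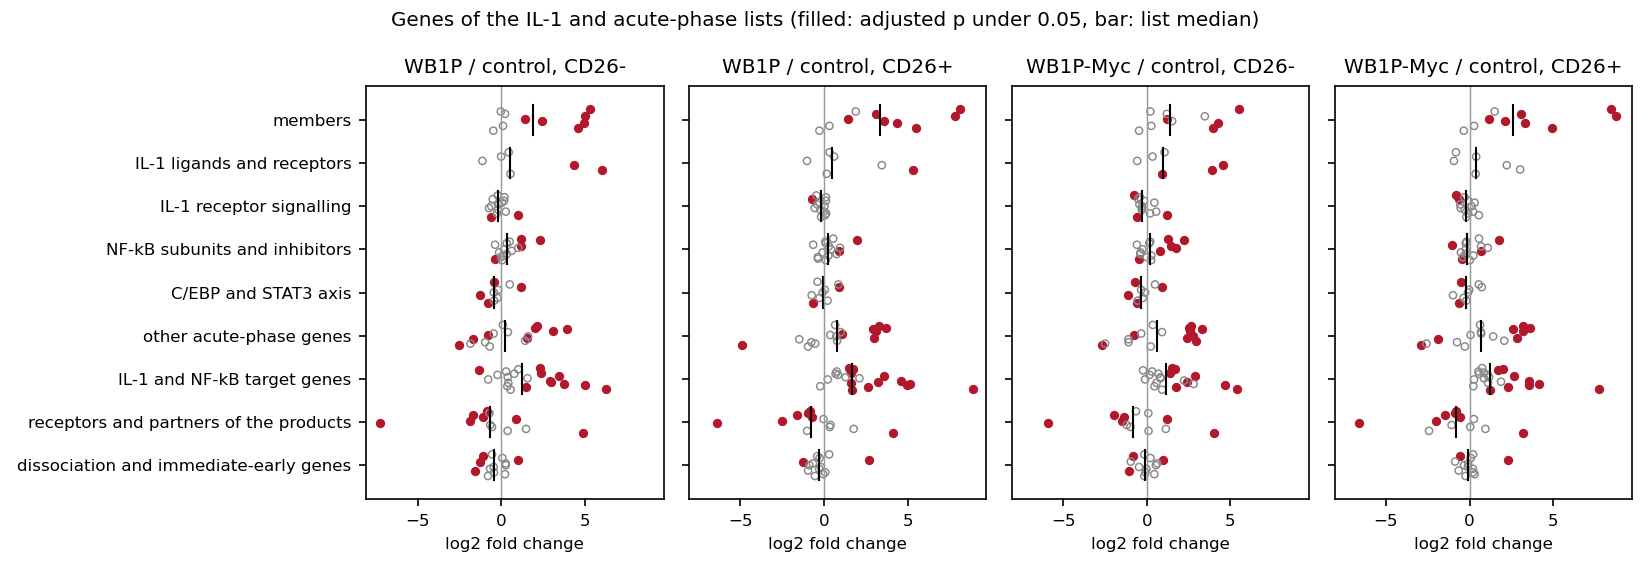
Log2 fold change in CAFs against control fibroblasts of the tested genes of each list, 1 point per gene, filled where the adjusted p was under 0.05, with the list median as a bar. The medians of the members lie at 1.36 to 3.36 and those of the IL-1 and NF-kB target genes at 1.14 to 1.67, with the medians of the signaling list between -0.285 and -0.174.

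Receptors and partners of the products (12 of 13 tested) had 2 risers and 5 fallers, 1 and 6, 2 and 4, and 1 and 6 (58.3, 58.3, 50 and 58.3%), with Arg1 among the risers and Nos1, Nos3, Slc22a17 (a lipocalin 2 receptor) and Slc40a1 (the iron exporter) lower in each. Of 13 dissociation and immediate-early genes, which report handling of tissue as well as signaling, 1 rose (Ier3) in each comparison and 3, 1, 2 and 1 fell (30.8, 15.4, 23.1 and 15.4%), and their median log2 difference was -0.449, -0.292, -0.082 and -0.083. Adipocyte markers (7 genes) were lower in WB1P CAFs, at 7.20 to 72.0 CPM in CD26- and 4.86 to 10.5 CPM in CD26+ sums, than in NFs at 69.7 to 127.3 and 44.5 to 82.5 CPM, with 1 mouse above the lowest NF in the CD26- class. In WB1P-Myc CAFs they were at 24.9 to 157.4 and 6.08 to 34.1 CPM. Endothelial markers (6 genes) were at 17.2 to 86.5 CPM in CD26- CAFs and 69.2 to 173.0 CPM in CD26+ CAFs, against 36.9 to 62.3 and 177.7 to 543.2 CPM in NFs. The part of other cells in the levels of the members was not tested.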

How the data were processed

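The authors made stranded, poly(A)-selected paired-end libraries and deposited the count of reads per gene, without normalization. The submitters' processing notes name HISAT2 2.2.1 and GRCm38. The counter and annotation release are not given in the sources used here, and member coordinates equal those of GENCODE release M21. The table holds 55487 lines, of which 1 names no gene and has 0 counts. All 44 libraries were mapped by their labels, with 0 copies among 63 pairs of libraries of a group. The members and lists were chosen with earlier results of these data known.

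Counts were summed per mouse and CD26 class (19 sums of 2 libraries, 6 of 1). In R 4.3.3 with edgeR 4.0.16, genes were filtered with filterByExpr, scaled by TMM (factors 0.78 to 1.153), fitted with glmQLFit over all 6 groups and tested with glmQLFTest, with Benjamini-Hochberg adjustment over 16601 genes and a call at an adjusted p under 0.05. A ± after a log2 difference is the SE, computed from the F statistic. The test was checked on simulated counts. Named list genes were, per list and comparison, the called gene with the largest change and at least 10 CPM, and genes needed to describe counts. Il6 was named after its values were seen, and Dpp4 checks the sort. The CD26 classes of a mouse come from the same animal, and their deviations correlated with r from 0.261 to 0.734 (median 0.4975, 12 pairs). Alternatives were DESeq2 1.42.0 size factors and its Wald test, total-count scaling, no filter, other sample sets, mouse as a block, and each mouse left out. P-values measure the spread between mice of a group. The main fit treats both sums of a mouse as independent. Its p-values between CD26 classes, and for changes in that difference between conditions, therefore leave out the pairing.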

Additional observations from a re-analysis of the deposited data

Results flagged for a closer look

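A lone mouse stood apart from the rest of its group, by Dixon's ratio of gap to range, in 7 of 40 groups of values (10 genes in 4 CAF groups). Chance gives about 1 in 20, or 2, only if levels are normally distributed. The ratio was taken on CPM without logs, and all 7 were the highest mouse of a group. The groups also share mice, so 7 beside 2 is no test. WB1P-Myc mouse 4 accounted for 3 of the 7, all in CD26+ cells: Saa3 at 506.9 CPM with the next mouse at 100.5, Nos2 at 220.2 CPM with the next at 3.56, and Hp at 39.73 CPM with the next at 19.1. In the same CD26+ cells Il1rn was at 1.5 CPM, within the range of the other mice. Cebpd was high in 1 mouse in 2 groups, WB1P mouse 1 in CD26- cells (164.8 CPM, next 84.4) and WB1P-Myc mouse 3 in CD26+ cells (177.2 CPM, next 72.8). Both of these sums hold 1 library. Nos2 was at 23.15 CPM in CD26- cells of WB1P mouse 5 (next 9.44), and Il1r1 at 636.0 CPM in CD26- cells of WB1P mouse 2 (next 323.1).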

How the results depend on the processing

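Saa3, Hp, Nfkbiz and Il1rn kept their calls in CAFs against NFs under all 15 alternatives of each comparison. Over members, comparisons and settings, 1806 values were labelled unchanged. They are fits that kept their side of the threshold and group mean CPM that moved by less than 1 SD. Among the fits, 103 values called in neither fit changed sign. Of the changed values, 40 lost a call, 11 gained one and no called value reversed. The count of members called between CD26 classes changed most. In NFs it was 1 with mouse as a replicate block against 0 without. In WB1P-Myc CAFs it was 4, and 0 without the 8x8 mice, 2 with only the groups compared and 1 with only sums of both En1 classes. With each mouse left out it ranged from 0 to 2 in WB1P and from 0 to 4 in WB1P-Myc CAFs. The cause of these changes was not tested. The share of all genes called is not given for these settings, here or with the results. The changed counts are therefore not read as a trait of the members. Beside those given with the results, the block changed no other call, and none could be fitted for CAFs against NFs, since each mouse has 1 condition. With only sums of both En1 classes Cebpd was called lower in CD26- WB1P (-0.79), CD26- WB1P-Myc (-0.75) and CD26+ WB1P-Myc CAFs (-0.73). DESeq2 gave no adjusted p for Nos2 in any comparison, nor for Saa2 in the CD26 difference of WB1P against control. Counts of 0 to 22 per sum in NFs limit the fold changes of Saa3, Saa1, Saa2, Nos2 and Il1rn, and 3 control mice limit every comparison with NFs. Scaling by total counts moved the median of all genes by up to -0.175 (log2, CD26+ WB1P against NFs).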
